A study of Rattus norvegicus with 16 samples.

Results

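Genes of proteins that the liver secretes into blood were measured in embryonic rat kidney, on every array of a comparison of 2 inbred strains. The set was chosen by symbol and holds 10 genes, Alb, Afp, Apoa1, Apoa2, Apob, Ttr, Fga, Fgb, Ahsg and Vtn. A gene-level probe set with exactly 1 of these symbols existed for 9 of them, out of 21371 gene-level probe sets in all, and 113 of 213067 exon-level probe sets carried the same symbols. Apoa1 was not analysed here. The genes were chosen with their spread between arrays of the same strain already known, so their levels per array are given as a description and the spread itself is no test result.

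One strain was MWF, the Munich Wistar Frömter rat, which develops albuminuria, dissected at E15.5 (days of embryonic development). The other was SHR, the spontaneously hypertensive rat, dissected at E16.0. Each strain had 4 arrays of total RNA from male kidney tissue, and the same 8 arrays were summarised at gene level and at exon level, so these levels are not independent of each other. Strain and embryonic day cannot be told apart, and the labels name no treatment. They do not say whether tissue was pooled or came from separate embryos or litters. The p-values therefore cover only the spread among the arrays of a strain, which may be technical.

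Hepatocytes make most of the protein of blood plasma and release it through the secretory pathway. Albumin and the fetal form alpha-fetoprotein carry small molecules, transthyretin carries thyroid hormone and retinol-binding protein, apolipoproteins coat lipid particles, and fibrinogen forms the clot. In the fetus the liver is also a site of red cell formation, and the visceral yolk sac makes several of the same proteins.

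The promoters of liver secretory genes are known to be bound by the factors HNF1, HNF4, FOXA and C/EBP. RefSeq promoter windows of assembly GRCr8 were at hand for 7 of the 9 measured genes and were searched over the 250 bases before the annotated start, on both strands. The HNF1 core GTTAAT lay in 4 of the 7 (Alb, Afp, Fga and Fgb), and in 6.46% of 27457 promoters searched the same way. Alb and Afp, and likewise Fga and Fgb, are neighbours in the genome. Whether the core or the position in the genome bears on the levels per array was not tested. The upstream stretches of these 4 genes with the core are shown with it in capitals (ATTAAC where it reads on the opposite strand). They lie at chr14:17906980-17907129, minus strand, for Alb, at chr14:17875646-17875795, minus strand, for Afp, at chr2:170672019-170672168, plus strand, for Fga, and at chr2:170700876-170701025, minus strand, for Fgb, in GRCr8.
Alb: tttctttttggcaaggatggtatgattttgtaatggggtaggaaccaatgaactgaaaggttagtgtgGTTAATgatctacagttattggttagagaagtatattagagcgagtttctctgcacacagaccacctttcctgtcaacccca
Afp: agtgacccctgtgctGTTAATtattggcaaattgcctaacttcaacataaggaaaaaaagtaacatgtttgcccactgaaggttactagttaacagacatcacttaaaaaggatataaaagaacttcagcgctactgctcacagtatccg
Fga: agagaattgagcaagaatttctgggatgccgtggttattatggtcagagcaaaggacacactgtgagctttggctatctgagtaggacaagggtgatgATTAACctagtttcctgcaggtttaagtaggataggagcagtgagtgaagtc
Fgb: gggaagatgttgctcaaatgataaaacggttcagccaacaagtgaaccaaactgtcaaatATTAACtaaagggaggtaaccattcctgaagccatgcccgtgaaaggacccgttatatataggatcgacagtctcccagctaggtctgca
Counted from the annotated start, the core begins at position -82 in Alb, -135 in Afp, -52 in Fga and -90 in Fgb. The FOXA motif TGTTTGC lay in Afp, Ahsg and Alb (3 of 7, against 4.09% of all promoters) and TGTTTAC in Fgb (1 of 7, against 3.25%). The C/EBP letters TTACGCAA were in Ahsg (1 of 7, against 0.146%), while neither TTGCGCAA (0.164% of all promoters) nor the HNF4 letters CAAAGTCCA (0.331%) were in these windows. A match of letters is a description of the window and not a binding site.

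Markers of embryonic kidney were present on every array. The 8 measured genes of nephron progenitors, the cells that give rise to nephrons, had list means between 9.79 and 10.05 (log2 intensity) on the 8 arrays, a range of 0.26, and Wt1, a transcription factor gene of these cells and of podocytes, lay between 10.03 and 10.16. Osr1 and Sall1, transcription factor genes with the highest means of the list, had ranges of 0.84 and 0.29. Array medians over all gene-level probe sets lay between 8.17 and 8.21. Genes of sympathoadrenal cells (10 measured, such as Th, the first enzyme of catecholamine synthesis) had another order of arrays (13 of 28 pairs as in the liver genes): their list mean was 9.59, 9.80 and 9.96 in SHR replicates 1, 3 and 4 but 6.72 in SHR replicate 2, and it was 7.70 in MWF replicate 1 against 6.75 to 6.84 in the other MWF arrays.

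Alb, the gene of serum albumin, was at 12.17, 12.08, 9.35 and 11.15 in MWF replicates 1 to 4 and at 12.12, 10.82, 8.63 and 9.59 in SHR replicates 1 to 4 (gene-level log2 intensity). MWF replicates 1 and 2 and SHR replicate 1 were high, SHR replicate 3 was lowest, and the strains overlapped. From lowest to highest array Alb spanned 3.54 on the log2 scale, 11.6-fold, of which 7.07-fold lay within MWF and 11.2-fold within SHR. Afp, the neighbouring gene of alpha-fetoprotein, was at 11.80, 11.60, 8.78 and 10.68 in MWF replicates 1 to 4 and at 11.72, 10.44, 8.18 and 9.30 in SHR. The high and the low arrays were those of Alb, and of the 28 pairs that 8 arrays form, Alb and Afp ordered all 28 alike. Afp spanned 12.3-fold from its lowest to its highest array.

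Ttr, the gene of transthyretin, was at 9.42, 9.25, 6.70 and 8.04 in MWF and at 9.70, 8.37, 6.65 and 7.09 in SHR. SHR replicate 1 was the highest array and SHR replicate 3 the lowest, 8.28-fold apart. Among the apolipoproteins, Apoa2, of high-density lipoprotein, was at 7.63, 7.49, 6.10 and 6.81 in MWF and at 7.65, 6.67, 5.59 and 6.11 in SHR. Apob, which encodes the large structural protein of low-density lipoprotein, was at 7.61, 7.52, 5.65 and 6.44 in MWF and at 7.73, 6.66, 5.47 and 5.62 in SHR. Both apolipoprotein genes were highest in SHR replicate 1 and lowest in SHR replicate 3, with spans of 4.16-fold and 4.82-fold.

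Of the fibrinogen chains, Fga (alpha) was at 7.57, 7.12, 5.82 and 6.62 in MWF and at 7.41, 6.22, 5.46 and 5.69 in SHR. Fgb (beta) was at 8.36, 8.38, 6.69 and 7.74 in MWF and at 8.29, 7.15, 6.25 and 6.05 in SHR. Fgb was the 1 gene of the 9 whose lowest array was SHR replicate 4, and it was also the gene with the fewest array pairs in the shared order, 24 of 28. Ahsg, the gene of fetuin-A, an inhibitor of mineral deposition, was at 9.68, 9.58, 7.31 and 8.37 in MWF and at 9.51, 8.03, 6.53 and 7.17 in SHR. Vtn, which encodes the adhesive plasma protein vitronectin, was at 7.37, 7.32, 5.97 and 6.45 in MWF and at 7.17, 6.42, 5.87 and 6.12 in SHR. Ahsg spanned 8.87-fold and Vtn 2.82-fold, and in both genes the same 3 arrays were high. Apoa2, Apob, Fga and Vtn lay below the array medians on every array. Their low arrays, and those of Fgb, Ahsg and Ttr, lay far below. No detection call was used, so spans that end at such values may be lower bounds and are not ranked between genes.

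**Figure D1:**
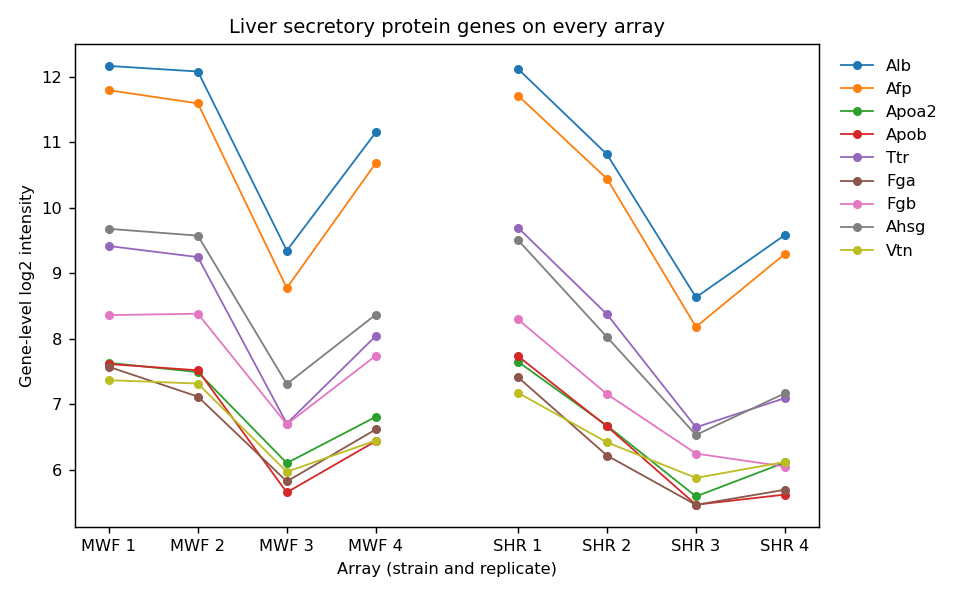
Gene-level log2 intensity of the 9 measured genes (vertical axis) on each of the 8 arrays (horizontal axis, MWF replicates 1 to 4 and SHR replicates 1 to 4), 1 point per array and 1 line per gene. The lines run nearly in parallel: MWF replicate 3 lies below the other MWF arrays in every gene, and SHR replicate 1 above the other SHR arrays.

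The mean of the 9 genes put the arrays in one order across the strains. Within each strain the replicates ran 1, 2, 4 and 3 from high to low, and at each number MWF lay above SHR in this mean. The labels do not say what the replicate numbers stand for. A fit with the replicate number as a block is given in the last section, and whether equal numbers share a batch was not tested further. Over all 8 arrays the mean was 9.07 in MWF replicate 1, 9.03 in SHR replicate 1 and 8.93 in MWF replicate 2. Then came 8.03 in MWF replicate 4 and 7.87 in SHR replicate 2. Last came 6.97 in SHR replicate 4, 6.93 in MWF replicate 3 and 6.52 in SHR replicate 3, a span of 5.87-fold. Of the 7 steps between neighbours in this order, 3 went the same way in all 9 genes. These were MWF replicate 2 over MWF replicate 4 (0.89 ± 0.25, SD over the 9 genes), SHR replicate 2 over SHR replicate 4 (0.89 ± 0.35) and MWF replicate 3 over SHR replicate 3 (0.42 ± 0.26). The other steps were smaller than their SD over the genes, at 0.03 ± 0.15 for MWF replicate 1 over SHR replicate 1, 0.11 ± 0.19 for SHR replicate 1 over MWF replicate 2, 0.17 ± 0.30 for MWF replicate 4 over SHR replicate 2 and 0.04 ± 0.34 for SHR replicate 4 over MWF replicate 3. Each array is 1 sample, so the SD is over genes of the same RNA and not over kidneys. Fewer cells of a type and less RNA per cell cannot be told apart in such bulk samples.

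Each gene ordered between 24 and 28 of the 28 array pairs as the mean of the 9 did, and between 24 and 28 as the mean of the other 8 did. Between any 2 of the genes the count ran from 22 (Ttr and Fgb) to 28 (Alb and Afp). All 9 had a range over the arrays of at least 1 on the log2 scale and at least 24 array pairs in this order. Since the genes define the order and were known to vary, nothing is read from this count; over all gene-level probe sets 7.09% had such a range, 0.819% had that many pairs and 0.346% had both. By the SD within strains the 9 genes ranked between 6 (Afp) and 215 (Vtn) among the 21371 probe sets.

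No strain difference in the 9 genes passed the test. For Alb the MWF arrays averaged 11.19 ± 1.31 and the SHR arrays 10.29 ± 1.51 (log2, SD, n = 4 each), a difference of 0.90 with a 95% interval from -0.93 to 2.73 (limma adjusted p = 0.567). Ahsg had the largest difference, 0.93 (-0.64 to 2.49; limma adjusted p = 0.479), and Vtn the smallest, 0.38 (-0.44 to 1.20; limma adjusted p = 0.593). All 9 lay above 0, as did 56.3% of all probe sets, with a median of 0.58, and the genes share their arrays. None of the 9 was called, against 6.58% of all gene-level probe sets, and in this fit, with strain as its only term, none reached an unadjusted p under 0.05 in limma. The strains overlapped in all 9, whereas 14.4% of all probe sets separated them without overlap. The smallest adjusted p among the 9 was 0.381, for Fgb (0.86, -0.33 to 2.05). The difference was 0.80 for Afp (-1.07 to 2.68), 0.40 for Ttr (-1.30 to 2.10), 0.50 for Apoa2 (-0.53 to 1.54), 0.44 for Apob (-0.86 to 1.73) and 0.58 for Fga (-0.47 to 1.64). Intervals this wide hold both no difference and one of more than 1 on the log2 scale.

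**Figure D2:**
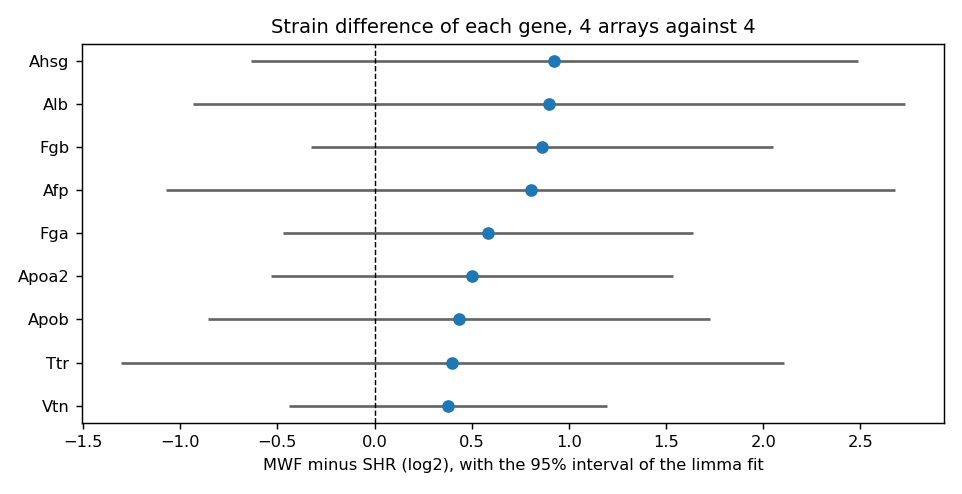
Difference between the strains (MWF minus SHR, log2, horizontal axis) for each of the 9 genes, with the 95% interval of the limma fit over 4 arrays against 4. Every interval crosses 0, and the widest belong to Afp, Alb and Ttr.

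Leaving out 1 array moved these differences widely. Without SHR replicate 3 the difference of Alb was 0.35 and that of Ttr was -0.035, against 0.40 for Ttr with all arrays, and without MWF replicate 3 that of Alb was 1.51. Without SHR replicate 2, which stood apart in the sympathoadrenal genes, the difference was 1.07 for Alb, 0.98 for Afp and 0.54 for Ttr. Whichever array was left out, none of the 9 passed.

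The exon-level probe sets gave the same picture along the whole of the brightest genes. All 15 probe sets of Alb had a range of at least 2.86, and all 15 of Afp a range of at least 1.62. In both genes each probe set ordered at least 24 of the 28 array pairs as the gene-level mean did. All 3 of Apoa2 and all 4 of Ttr did so too. Of the 13 probe sets of Ahsg 8 did, of the 12 of Fgb 5, of the 8 of Fga 4, of the 33 of Apob 13 and of the 10 of Vtn 3. In all, 95 of 113 had a range of at least 1 and 70 of 113 at least 24 pairs, while over all exon-level probe sets these shares were 22.7% and 0.922%.

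Probe sets of 1 gene differed widely in how far they moved. The Apob probe set with the widest range, 5.29, ran from 9.45 in SHR replicate 1 to 4.16 in SHR replicate 3. Another Apob probe set stayed between 3.85 and 4.36 on all arrays, and it ordered 25 of the 28 pairs alike. In Fgb the range ran from 0.25 to 3.64, and in Ahsg from 0.62 to 5.14. The probe sets that barely moved include an Fgb probe set that stayed between 4.92 and 5.17. Not all of them were dim. A bright Ahsg probe set lay between 10.98 and 11.70, a range of 0.72, and ordered 15 of the 28 pairs alike.

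**Figure D3:**
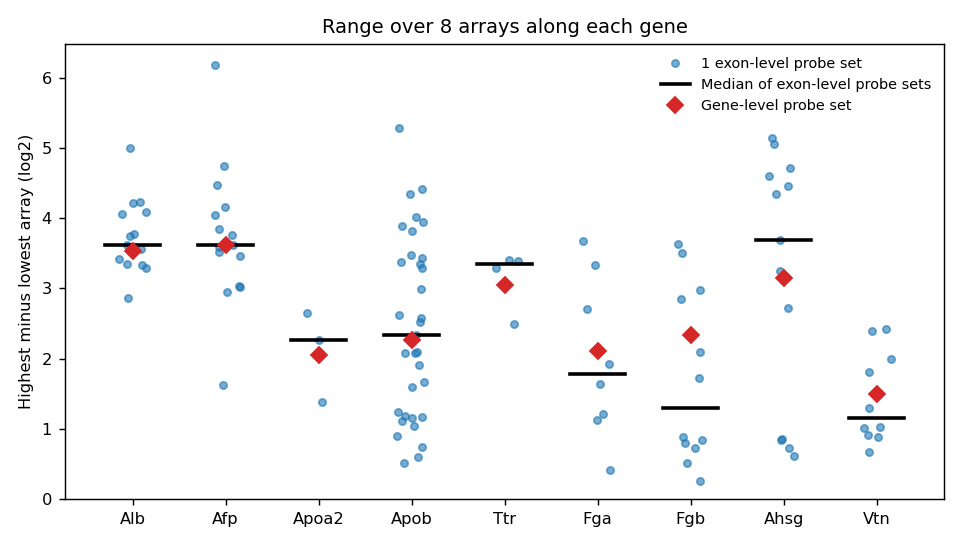
Range over the 8 arrays (highest minus lowest, log2, vertical axis) of every exon-level probe set (points), their median (black bars) and the gene-level probe set (diamonds) for each of the 9 genes (horizontal axis). Alb and Afp lie above 1 throughout, while Apob, Fgb, Ahsg, Fga and Vtn hold probe sets below 1.

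At exon level none of the 113 probe sets passed between the strains, against 1.93% of all exon-level probe sets (0.892% higher and 1.04% lower in MWF), and the smallest limma adjusted p was 0.161, in Afp. Of the 113, 101 lay above 0, as did 52.5% of all. To look at exons apart from the level of the whole gene, each value was also taken relative to the median of the gene's exon-level probe sets on the same array and fitted over 169253 probe sets of genes with at least 3 of them. This measure was chosen after the values were seen. With it 2 of the 113 passed, 1 in Alb and 1 in Afp, against 0.97% of all probe sets (0.518% higher and 0.451% lower in MWF), so 2 calls are no result about these genes.

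The Alb probe set lay at -0.59, -0.69, -1.72 and -1.27 relative to its gene in MWF and at 0.78, 0.41, 0.65 and 0.57 in SHR, so the strains did not overlap (-1.67 ± 0.25, SE; limma adjusted p = 0.0269). On the deposited scale it was at 11.72 in MWF replicate 1 and 12.93 in SHR replicate 1, arrays on which Alb as a whole was nearly equal. Relative to its gene the Afp probe set ranged from -0.65 to -0.07 over the MWF arrays and from -2.58 to -1.33 over the SHR arrays, also without overlap (1.73 ± 0.29, SE; limma adjusted p = 0.0409). The Alb call was lost without MWF replicate 4 or any 1 SHR array, and the Afp call without any 1 array other than SHR replicate 3. Whether sequence variants of a strain lie under these probes was not tested.

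Most measured genes of other secreted hepatocyte proteins followed the same array order. Of 39 such genes listed, 35 were measured, and 20 of them had a range of at least 1 with at least 24 array pairs in the order of the 9 genes, against 0.346% of all probe sets. The list was chosen with earlier results of these data known. Its mean was 7.39, 7.29, 6.33 and 6.73 in MWF and 7.24, 6.65, 6.17 and 6.26 in SHR, so MWF replicates 1 and 2 and SHR replicate 1 were again the high arrays. Ambp, which encodes alpha-1-microglobulin and bikunin, had the widest range, 3.11, followed by the protease inhibitor gene Serpina1 (3.03) and Gc, of the vitamin D-binding protein (2.82). Tf, the gene of the iron carrier transferrin, was at 9.70, 9.62, 7.29 and 8.56 in MWF and at 9.39, 7.85, 6.92 and 7.32 in SHR. The 3 arrays high in Alb were high in Tf too, and Tf ordered 27 of the 28 array pairs as the 9 genes did.

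Not every secreted liver protein did so. The apolipoprotein genes Apoa4 and Apoc1 ranged over 0.45 and 0.42, with 15 and 17 array pairs alike, and Hp, of the hemoglobin-binding protein haptoglobin, over 0.34 with 13. The amylase gene Amy1, among the brightest of the list at a mean of 8.25, had a range of 1.10 and 19 pairs. None of the 35 genes passed between the strains in either direction, against 3.18% of all probe sets called higher in MWF and 3.4% called lower, and 34 lay above 0.

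Enzymes of the hepatocyte interior formed another list. Of 25 listed, 19 were measured, and 2 of them met both criteria, against 0.346% of all probe sets. These were Hpd of tyrosine breakdown (range 2.64) and the urea cycle gene Otc (1.52). Hpd was at 8.81, 8.23, 6.28 and 7.61 in MWF and at 7.52, 6.53, 6.17 and 6.69 in SHR, so SHR replicate 1 lay further below MWF replicate 1 than in any of the 9 genes. The median range of the 19 enzymes was 0.75, against 1.32 for the 35 secreted proteins, 2.33 for the 9 genes and 0.41 for all probe sets. The 9 genes were chosen for their spread, and the means of the enzyme and secreted lists lay below the array medians. These median ranges are therefore not ranked between lists. Hal, of histidine breakdown, had a range of 1.44 with 21 pairs. The brightest enzymes, Ass1, Sds and Haao, had ranges of 0.48, 0.25 and 0.48. The mean of the enzyme list nevertheless ordered all 12 array pairs within strains as the 9 genes did, over a range of 0.42. Cps1, the entry enzyme of the urea cycle, stayed between 6.54 and 6.89. Of the liver-enriched transcription factors 11 of 17 were measured and 0 met both criteria, against 0.346% of all probe sets. This count is no result about the factors, and the mean of their list also lay below the array medians. Nr1i2, Nr1h4 and Nr5a2 had the widest ranges (1.21, 1.18 and 1.03) and Hhex, Onecut1 and Prox1 the highest means, with ranges of 0.66, 0.29 and 1.02. Hnf4a, which the kidney's proximal tubule also expresses, came closest with 26 pairs and a range of 0.97, while Cebpa stayed between 6.44 and 6.61. Cps1, Hnf4a, Cebpa, Apoa4, Apoc1 and Hp were chosen after their values were seen. No enzyme or factor gene of these lists passed between the strains, against 6.58% of all gene-level probe sets.

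Among all genes outside the set, those most like it were found by counting array pairs in the order of the 9 genes, over 723 genes with a range of at least 1. At least 24 pairs were reached by 51 genes, and 22 of the 51 stood in the hepatocyte lists. The 12 most like were Fetub and Apoc2, with 28 of 28 pairs, then Apoh, Tf, Serpina1, Serpinf2, Hdc, Aqp9 and Mt1 with 27, and Rbp4, Serpina6 and Gc with 26. The lists held 8 of them. Fetub encodes fetuin-B, a paralog of fetuin-A, Apoc2 an activator of lipoprotein lipase, and Serpina6 the corticosteroid-binding globulin. The hepatocyte lists were not complete, so the 22 are not all the liver genes among the 51. Others known from liver were Cpb2 (26 pairs, range 1.54), Gys2 (26, 1.91), C8a (25, 1.79) and Apoc4 (25, 1.29), picked after their values were seen. Genes known from red cells that the red cell list lacked were among the 51 too, picked in the same way. They included the carbonic anhydrase genes Car1 (26 pairs, range 3.19) and Car2 (25, 1.76) and the urea transporter gene Slc14a1 (25, 1.06). The iron reductase gene Steap3 (25, 1.11) and the amino acid transporter gene Slc38a5 (24, 1.41) were further ones. Some of these are expressed in other cells too.

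The 4 genes outside the lists included 1 secreted protein gene, Serpina6, and 3 genes of cell-bound proteins. Hdc, the enzyme of histamine synthesis, was at 9.30, 9.15, 6.42 and 8.00 in MWF and at 8.58, 7.06, 5.65 and 6.67 in SHR, a 12.6-fold span. Aqp9, a water and glycerol channel of hepatocytes, spanned 2.71-fold. Mt1, of the metal-binding protein metallothionein, was bright on all arrays, from 10.42 to 11.70.

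In the gene order of GRCr8, Afp and Alb are neighbours on chromosome 14, and Fga and Fgb on chromosome 2, next to the third fibrinogen gene, Fgg. Within 2 protein-coding genes of a set gene, 22 other genes were measured. Of these, Fetub, beside Ahsg, and Fgg met both criteria, against 0.346% of all probe sets. Both were already counted in the list of other secreted hepatocyte proteins. Fgg was at 8.07, 7.60, 5.94 and 6.90 in MWF and at 8.18, 6.86, 6.19 and 6.27 in SHR. Of the rest, 17 had a range under 1, such as 0.18 for Ankrd17, next to Alb, and 0.48 for Dnajb11, next to Ahsg. Afm, next to Afp, encodes another protein of the albumin family and had a range of 0.99 with 19 pairs. The other 3 (Sarm1, Hrg and Fcer1g) had a wider range without the order. The neighbours were examined after the values were seen.

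The mean of the red cell list, over 22 measured genes of 29 listed, was 9.17, 9.40, 8.51 and 8.83 in MWF replicates 1 to 4 and 8.33, 8.34, 7.91 and 8.01 in SHR. Within strains it moved with the liver genes: it ordered 10 of the 12 array pairs alike, and only replicates 1 and 2 of each strain changed places. Across strains every MWF array lay above every SHR array, so 21 of all 28 pairs were alike. At nearly equal liver means, MWF replicate 1 exceeded SHR replicate 1 by 0.84 in the red cell mean and by 0.03 in the mean of the 9 genes. Of the 22 genes 7 were called higher in MWF, against 3.18% of all probe sets, and none lower, against 3.4%. They were the globin genes Hba-a3 (2.48), Hbb-b1 (1.63, limma adjusted p = 0.00204), Hbg1 (1.18), Hbb (0.68) and Hbe2 (0.52), the blood group gene Rhd (1.68) and the erythropoietin receptor gene Epor (0.31). Hbe1, the brightest, had a range of 0.17. Of the list, the blood cell factor gene Gfi1b met both criteria, beside the red cell genes outside it named above. The part of red cells in the spread of the 9 genes was not tested.

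The lists of adrenal cortex (8 genes), proximal tubule (18), gut and pancreas (11), lung (4), megakaryocyte (3) and gonad (9) genes had means below the array medians. No detection call was used. Over the arrays these means had ranges between 0.16 and 0.54. None of the genes in these lists met both criteria, against 0.346% of all probe sets, so this count is no result about these lists. Their brightest genes had these ranges: Fdx1, Nr0b1 and Star of adrenal cortex 0.33, 0.55 and 0.44, Dab2, Anpep and Lrp2 of proximal tubule 0.43, 0.91 and 0.90, and Cdx2, Vil1 and Ppy of gut and pancreas 0.49, 0.21 and 0.67. Those of lung, Nkx2-1, Sftpb and Sftpc, had 0.33, 0.71 and 0.38, those of megakaryocytes, Pf4, Gp9 and Ppbp, 0.20, 0.47 and 0.56, and those of gonad, Insl3, Sycp3 and Dnd1, 0.26, 0.36 and 0.21. In the sympathoadrenal list Gata3, which kidney ducts also express, had 0.37, and Th and Dbh 5.51 and 5.67. Between the strains Cdh16, a kidney cadherin gene, Gp9 of platelets and Sftpb of lung surfactant were called higher in MWF, against 3.18% of all probe sets, and Anpep, a brush border peptidase gene, lower, against 3.4%. The visceral endoderm list shares Afp and Ttr with the set and Rbp4 with the secreted proteins, and those 3 of its 12 measured genes met both criteria. Counting pairs alone, 4 of its genes reached at least 24. The mean of this list ordered 27 array pairs as the 9 genes did, over a range of 0.87. Within strains it ordered all 12 pairs alike. The 3 shared genes are part of this mean, and a mean without them was not taken. The other genes of the list did not meet both criteria, for example Slc39a8 (range 0.47) and Gata6 (1.21, 14 pairs). Cubn stayed between 6.51 and 6.85 and Amn between 7.36 and 7.69. These receptor genes of vitamin B12 uptake were chosen after their values were seen.

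**Figure D4:**
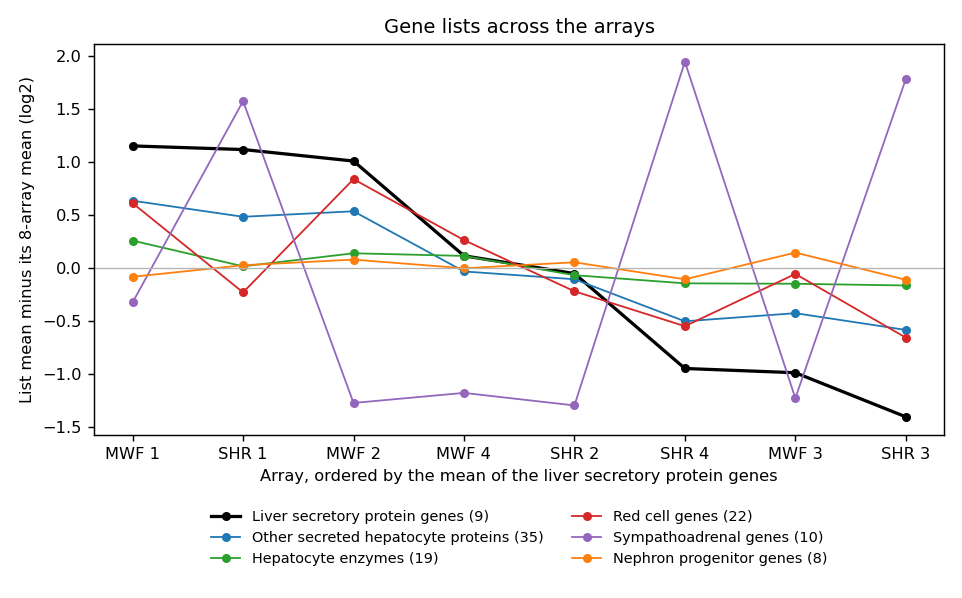
Mean of each gene list minus its own mean over the 8 arrays (log2, vertical axis), with the arrays ordered by the mean of the 9 liver secretory protein genes (horizontal axis) and the number of measured genes in brackets. Other secreted hepatocyte proteins fall with the 9 genes from left to right, enzymes only slightly, nephron progenitor genes stay within 0.26, red cell genes fall with the 9 genes within each strain but lie higher in MWF, and sympathoadrenal genes follow another order.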

How the data were processed

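Per the labels, biotin-labelled total RNA of 4 MWF and 4 SHR embryonic kidney samples was hybridised to rat gene arrays. The deposited values are log2 intensities, 1 per gene-level probe set and 1 per exon-level probe set, already summarised by the authors, and the nearly equal array medians show a common scale. The submitters' processing notes name Partek. Background correction, normalization, filters and genome build were not given in the sources used here. Arrays have no read depth, so their number limits the precision.

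Gene names came from GEO's platform annotation, updated by RefSeq (GRCr8). At gene level 12936 of 21371 had 1 symbol, 184 several and 8251 none, and all 12936 matched RefSeq. At exon level 172924 had 1 symbol, 1661 several and 38482 none, and 172411 matched. Only those with 1 symbol were named, with the probe set of highest mean standing for a gene that had several. Each table was fitted whole with limma 3.58.1 in R 4.3.3 (lmFit, eBayes, strain as the only term), with Benjamini-Hochberg adjustment and a threshold of 0.05. Python 3.11.15 did the rest. The fits were tested on simulated data.

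The 10 genes, the 14 lists and the criteria were chosen with earlier results of these data known. Named are the 10 genes, the 12 genes most like them, and from the lists genes that passed, the brightest 3 and, for hepatocyte lists, the widest 3. Cubn, Amn, Apoa4, Apoc1, Hp, Cps1, Hnf4a, Cebpa, Gfi1b, Car1, Car2, Slc14a1, Steap3, Slc38a5 and the neighbouring genes were chosen after their values were seen. So were Cpb2, Gys2, C8a and Apoc4. Alternatives covered normalization, a filter on dim probe sets, a variance trend, weights per array, a block for replicate number, leaving out arrays in turn, and exon medians.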

Additional observations from a re-analysis of the deposited data

Results flagged for a closer look

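In groups of 4 arrays, 1 array can lie far from the other 3, by Dixon's criterion at the 95% level, in about 1 in 20 groups by chance. Among 70 groups examined, over the 9 genes, the 14 list means and the 12 genes most like the set, this happened in 2, both in the list mean of sympathoadrenal genes. MWF replicate 1 was at 7.70, above 6.75 to 6.84 in the other MWF arrays. SHR replicate 2 was at 6.72, below 9.59 to 9.96 in the other SHR arrays. None of the 9 liver secretory protein genes had such an array in either strain.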

How the results depend on the processing

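None of the 9 genes passed between the strains under any of the alternatives run. The smallest adjusted p of limma was 0.0568, for Ahsg with the replicate number as a block. In that fit 8 of the 9, all but Ttr, had an unadjusted p under 0.05 and an interval above 0 (lowest p 0.00396 by limma), as against 23.6% of all probe sets with such a p. Over the alternatives the differences of Alb ran from 0.35 to 1.51. With 1 array left out Ttr ran from -0.035 (without SHR replicate 3, its one change of sign) to 0.98. The replicate block moved the gene-level calls to 1312, and the exon-level calls from 4112 to 2172. Deviations of same-numbered arrays correlated at 0.28, 0.15, 0.098 and 0.16 across probe sets, all above 0, and those of different numbers at -0.33 to 0.25. MWF replicates 1, 2 and 3 correlated best with their own number. SHR replicate 2 did so with MWF replicate 4 (0.18) and SHR replicate 3 with MWF replicate 1 (0.25). The labels do not say that equal numbers mark pairs, so strain alone stayed the main fit. Whether they are pairs was not tested further.

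The 1407 gene-level calls among 21371 probe sets became 872 among the 10685 left without the dim ones. Over the whole table they became 2397 with array weights. With 1 array left out they ran between 775 and 2279, the highest without SHR replicate 2. Without MWF replicate 2, 3 or 4 they were 793, 830 and 887, and without SHR replicate 1, 3 or 4 they were 900, 905 and 775. With the mean of the 9 genes as a covariate, an alternative chosen after seeing the data, 964 were called, against 1409 without the 9 genes or the covariate. Exon-level calls ran from 2405 to 6210 with 1 array left out, again highest without SHR replicate 2. They were 2446, 2432 and 2496 without MWF replicate 2, 3 or 4 and 2494 and 2405 without SHR replicate 3 or 4, and 1641 of 169253 relative to the gene median. The causes were not tested.

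Between 24 and 28 of the 28 array pairs kept their order with exon medians, with the median over genes or without any 1 of the 9 genes. The exon calls relative to the gene in Alb and Afp were both lost with the block and both kept after quantile normalization. Range-scaled profiles named 9 of the same 12 most alike genes. The filter on dim probe sets kept Alb, Afp and Ahsg only. The others lie below the median intensity of all probe sets, and no detection call was used.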
